A study of Mus musculus with 6 samples.

Results

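The genes described are 39 interferon-stimulated genes of the mouse, the guanylate-binding protein (Gbp) genes left out, in T helper 9 (Th9) cells cultured with or without sphingosylphosphorylcholine (SPC), a bioactive lysophospholipid. They were chosen as a named list of gene symbols and not by a filter on their values, but with earlier results of these data known. All 39 are among the 23183 symbols of the count files. Naive CD4 T cells from spleens of wild-type C57BL/6N mice were cultured for 3 days, in 3 libraries with SPC (d18:1, 30 µM) and 3 control libraries without it. SPC and control cultures alike were stimulated on plates with anti-CD3e and anti-CD28 (1 µg/ml of each) under IL-4 at 10 ng/ml and TGF-beta1 at 2 ng/ml, and an antibody against interferon gamma (anti-IFN-gamma, 10 µg/ml) was present in all 6. The libraries of each group are numbered 1 to 3, and the series text describes 3 independent experiments. Whether cells of several mice were pooled is not given in the sources used here.

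Interferons are antiviral cytokines. Type I interferons act through the receptor chains Ifnar1 and Ifnar2 and a factor complex that holds Stat2 and Irf9 and binds the interferon-stimulated response element (ISRE), while interferon gamma acts through the gamma-activated site (GAS). The induced genes encode sensors of foreign nucleic acid, factors and regulators of the response, antiviral effectors, immunity-related GTPases that attack pathogen-containing vacuoles, and the antigen processing machinery of MHC class I. Many of them are kept at a basal level without added interferon, and some are also induced directly by factors such as Irf3.

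The promoters of 5 members are shown because they cover both directions of the results that follow and the motifs through which interferon acts. Ifit1, Isg15 and Oasl1 were higher with SPC, and Oas3 and Igtp were lower, in the test that takes the library number into account. Without the number, the same test called none of these 5 at an adjusted p under 0.05. The calls of Oas3 and Igtp were also lost when some libraries were left out. Each line holds the 250 bases before the start site in GRCm38.p6 (the assembly named mm10), from RefSeq, 5′ to 3′ in the direction of the gene. Capitals mark matches on either strand to the ISRE core, which is GAAA followed by any 2 bases and GAAA again, or to the GAS core TTCNNNGAA, and adjoining matches run together.

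Ifit1 (chr19:34640639-34640888, plus strand): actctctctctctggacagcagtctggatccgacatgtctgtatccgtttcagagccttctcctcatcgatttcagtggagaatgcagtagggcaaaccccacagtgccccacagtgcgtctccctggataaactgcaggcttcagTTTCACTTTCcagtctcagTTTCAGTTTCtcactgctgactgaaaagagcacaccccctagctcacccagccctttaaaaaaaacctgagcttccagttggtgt

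Isg15 (chr4:156200819-156201068, minus strand): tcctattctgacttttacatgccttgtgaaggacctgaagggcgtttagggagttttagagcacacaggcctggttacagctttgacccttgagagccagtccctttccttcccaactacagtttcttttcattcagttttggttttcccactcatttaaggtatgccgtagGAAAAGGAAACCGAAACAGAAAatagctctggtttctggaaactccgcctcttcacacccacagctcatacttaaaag

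Oasl1 (chr5:114922990-114923239, plus strand): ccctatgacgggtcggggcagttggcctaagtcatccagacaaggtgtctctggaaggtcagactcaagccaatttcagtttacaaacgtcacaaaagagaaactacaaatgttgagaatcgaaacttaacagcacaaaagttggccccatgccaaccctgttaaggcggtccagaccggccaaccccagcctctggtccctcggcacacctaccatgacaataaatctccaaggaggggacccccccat

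Oas3 (chr5:120777660-120777909, minus strand): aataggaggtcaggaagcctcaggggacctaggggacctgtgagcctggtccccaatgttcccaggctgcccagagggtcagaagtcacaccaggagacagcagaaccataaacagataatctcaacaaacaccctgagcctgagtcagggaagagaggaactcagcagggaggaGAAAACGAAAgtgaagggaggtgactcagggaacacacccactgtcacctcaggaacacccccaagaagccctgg

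Igtp (chr11:58199306-58199555, plus strand): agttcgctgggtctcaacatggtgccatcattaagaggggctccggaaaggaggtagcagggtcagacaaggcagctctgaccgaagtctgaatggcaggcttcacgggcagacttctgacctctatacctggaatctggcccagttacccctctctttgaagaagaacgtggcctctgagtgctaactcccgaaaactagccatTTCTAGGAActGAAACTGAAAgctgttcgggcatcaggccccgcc

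Ifit1 had ISRE cores at -104 and -85, counted from the start site to the match's upstream base, and Isg15 had overlapping ISRE cores at -78, -72 and -66. Oas3 had an ISRE core at -75, and Igtp had one at -34 beside a GAS core at -45. Neither set of letters occurs in the Oasl1 window. Among these 5 promoters, which were picked to cover both directions, the ISRE core was found before genes of either direction. RefSeq windows running from 250 bases before to 50 bases after the start (300 in all) were held for 29 of the 39 members. Of these, 14 (48.3%) had an ISRE core in a window, against 3.99% of the 27025 genes with a window, and 10 (34.5%) had a GAS core, against 9.55%. Split by the test that takes the library number into account, described with the fold changes, an ISRE core was found in 3 of 4 members that were higher, 4 of 5 that were lower, 4 of 14 that were tested and not called, and 3 of 6 that were too low to test. A match is a description of the letters and not a binding site.

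**Figure D1:**
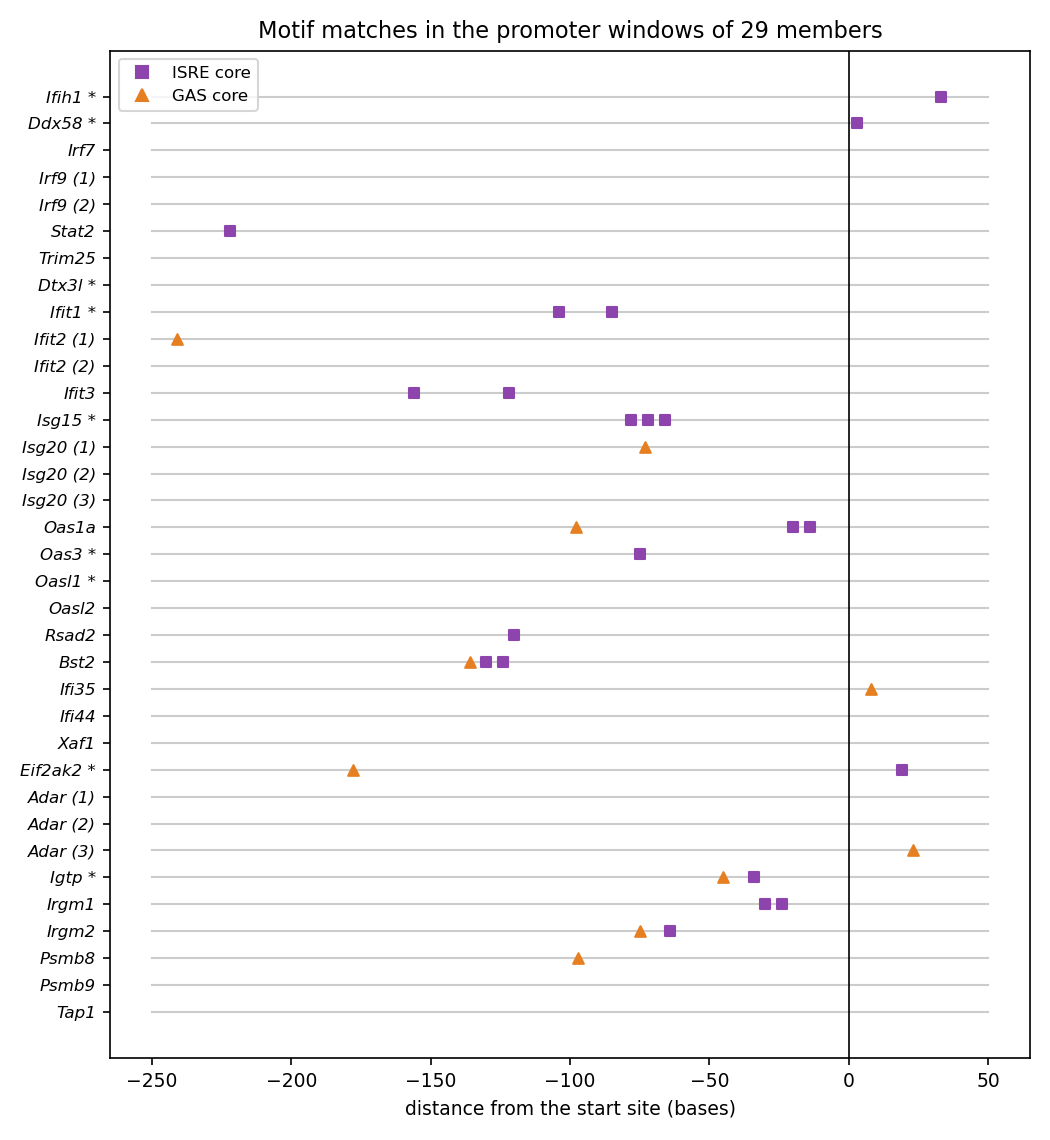
Matches to the ISRE core (squares) and the GAS core (triangles) in the promoter windows of the 29 members that have one, by distance from the start site in bases; each line is 1 window, numbers in brackets are alternative starts, and an asterisk marks members called with the replicate block. Matches lie before members of either direction, such as Isg15 at -78, -72 and -66 and Oas3 at -75.

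Total counts lay between 22715292 and 33049997 in the SPC libraries and between 22002050 and 30292992 in the control libraries. The T cell genes Cd3e and Cd4 were high in every library (80.0 to 115 and 456 to 483 CPM with SPC, 96.4 to 111 and 434 to 468 CPM in control, where CPM are counts per 1000000 counts of the library), and Il9 was at 981 to 1412 CPM with SPC and 522 to 559 CPM in control. Markers of other cell types were low. Of 27 listed in the files, 4 had a group mean above 1 CPM, and Clec9a, Ms4a1, Ncr1, S100a8, Retnlg and Hbb-bs were at 0 in all 6 libraries. The summed level of the 27 markers was 12.8 to 15.6 CPM with SPC and 9.99 to 11.6 CPM in control, and without the 4 highest (Zbtb46, Cd79b, Cd8b1 and Cd68) 1.49 to 1.64 CPM with SPC and 1.06 to 1.91 CPM in control. With the library number as a block, the dendritic cell marker Zbtb46 was higher with SPC (adjusted p = 0.0427). Flt3, the other dendritic cell marker tested, had 0.273, 0.574 and 0.478 CPM in the SPC libraries and 0.137, 0.232 and 0.682 CPM in the control libraries. Its groups overlapped and it was not called with the block (adjusted p = 0.631). Adgre1, a macrophage marker with 4 to 6 counts per library with SPC and 12 to 21 in control, was lower with the block (adjusted p = 0.0315). Cd68, the other macrophage marker tested, had 1.76, 1.53 and 2.09 CPM in the SPC libraries and 1.47, 1.09 and 1.45 CPM in the control libraries, above control in all 3 pairs and not called (adjusted p = 0.297). Siglech, a marker of plasmacytoid dendritic cells, which make type I interferon, had 1 count in SPC library 2 and none elsewhere. The part of other cells in the results on the members was not tested. In bulk libraries, fewer cells of a type and less RNA per cell cannot be told apart.

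The members spanned a wide range of basal levels. Levels of different genes are compared on the scale of CPM per kilobase of exon, which is rough. The length is that of the merged exons of all annotated transcripts, which may exceed that of the transcripts present. The highest was Psmb8, a subunit of the immunoproteasome, at 66.0 ± 7.95 with SPC and 69.3 ± 3.04 in control (SD, n = 3 each). Bst2, which encodes tetherin, followed with 33.5 with SPC and 34.3 in control, and Igtp, an immunity-related GTPase, with 24.0 with SPC and 28.9 in control. Trim25, Tap1, Ifi35 and Adar lay between 13.5 and 18.6 with SPC and between 13.8 and 20.4 in control. Many textbook antiviral effectors were close to absent. The effectors Ifit3, Mx1, Mx2, Oas1a, Oas2, Oasl2, Rsad2, Rtp4 and Ifi44 and the factor Irf7, 10 members in all, were too low to be tested. None of them reached more than 12 counts in any library. Rtp4 had 4, 2 and 0 counts in the SPC libraries and none in the control libraries. Mx2, a dynamin-like GTPase gene, had 6, 4 and 12 counts in the SPC libraries and 4, 3 and 0 in the control libraries. Oas1a and Ifit3 share 57.6% and 51.2% of their 50-base windows with Oas1g and Ifit3b, so their counts are uncertain in any case. C57BL/6 mice carry a defective Mx1 allele.

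**Figure D2:**
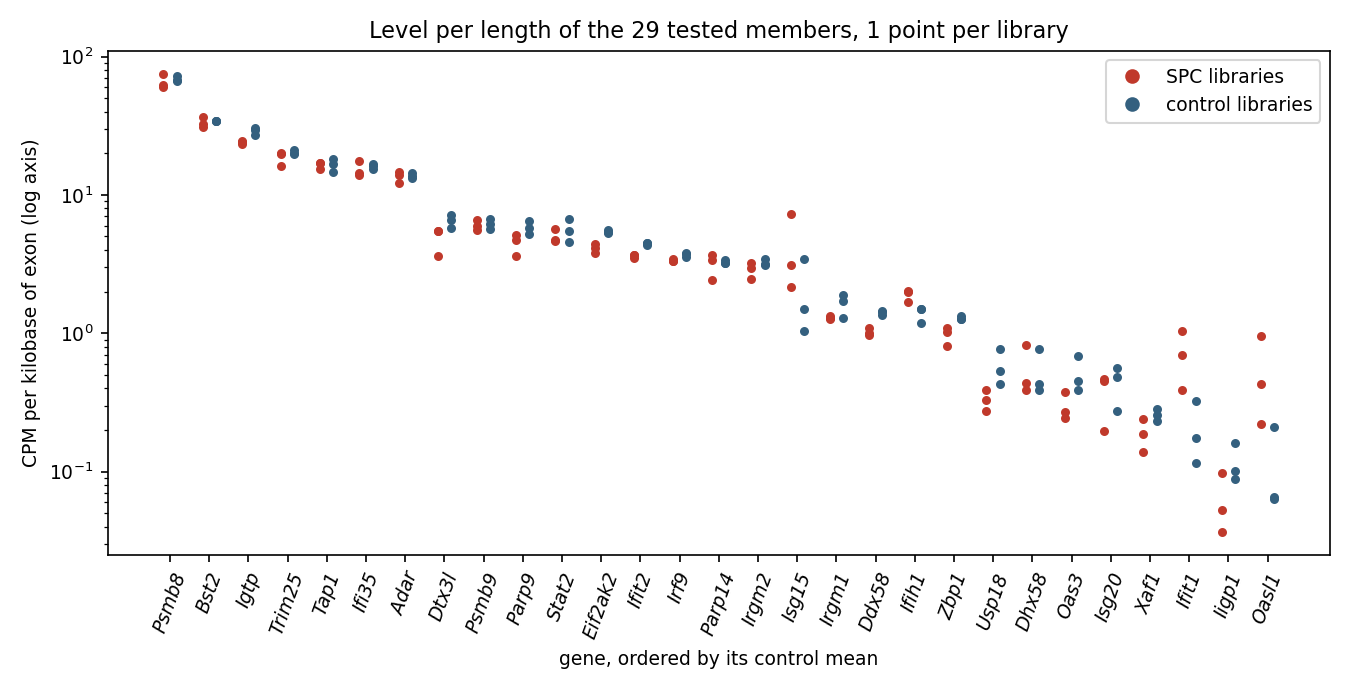
Level of the 29 tested members in CPM per kilobase of exon (log axis), 1 point per library, SPC libraries left of control libraries, ordered by the control mean. The highest member, Psmb8, has a control mean of 69.3, and the lowest, Oasl1, has 0.113.

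The comparison asks how SPC changes these genes in cells under Th9 conditions. With group as the single term, edgeR called none of the 29 tested members (0.483% of the 12226 tested genes were called). At an unadjusted p under 0.05 there were 12 of 29 members, against 10.2% of all tested genes, and DESeq2 called Ifit1, Oasl1 and Eif2ak2 (adjusted p = 0.0207, 0.0307 and 0.0247, with 2.16% of its genes called). The library number was also taken to pair the libraries, which was inferred from these counts and is not stated in the titles. With the number as a block, 10 of the 29 members were called, 4 higher and 6 lower. Of all tested genes, 4.02% were called higher and 3.07% lower (7.08% in all). DESeq2 with the block called 6 of these 10, namely Ifit1, Isg15, Oasl1, Parp9, Dtx3l and Eif2ak2, where 5.35% of its genes were called. In what follows, rose and fell refer to this blocked test, and the adjusted p of the test without the block stands beside it. The tested members did not move one way. As a description, their median log2 fold change was -0.16, against 0.00193 for all tested genes, and 24 of the 29 lay below 0, yet the members with the largest change were higher.

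**Figure D3:**
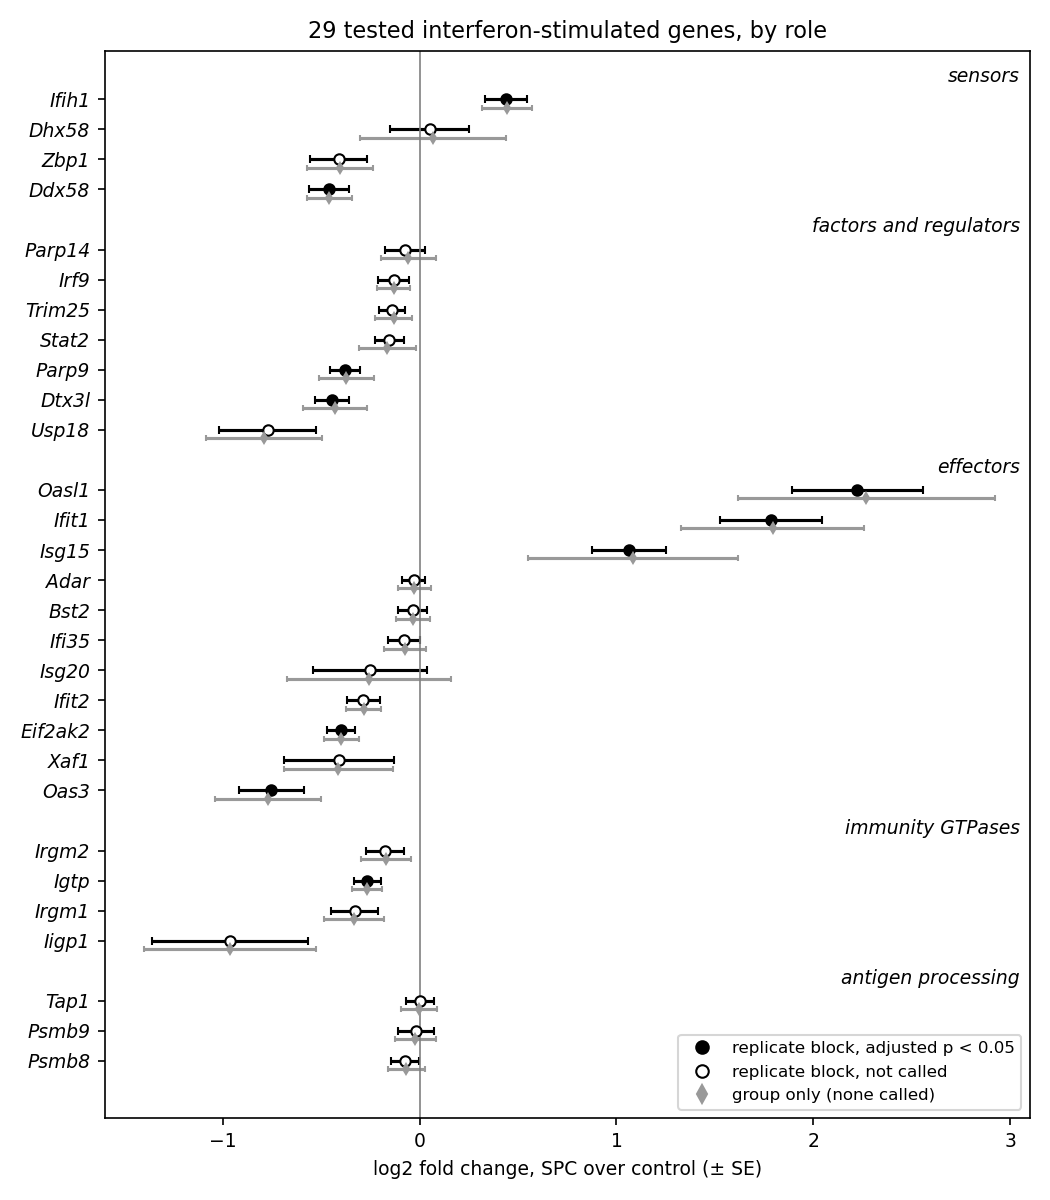
Log2 fold change, SPC over control, of the 29 tested members by role (± SE), from the blocked test (circles, filled where the adjusted p is under 0.05) and from the test on group alone (diamonds). Oasl1, Ifit1, Isg15 and Ifih1 lie above 0, while Ddx58, Parp9, Dtx3l, Oas3, Eif2ak2 and Igtp are called below 0.

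Among the sensors, the genes of the main RNA helicases went in opposite directions. Ifih1 (chr2:62595798-62646255 on mm10), which encodes MDA5, the cytosolic sensor of long double-stranded RNA, had 13.8, 16.5 and 16.2 CPM in the SPC libraries and 12.1, 12.2 and 9.73 CPM in the control libraries. The groups did not overlap, and Ifih1 rose (log2 fold change 0.44 ± 0.11, adjusted p = 0.0360 with the block, and 0.218 without it). Ddx58 (chr4:40203773-40239828), which encodes RIG-I, the sensor of short RNA with a 5′ triphosphate, had 6.80, 7.08 and 7.69 CPM in the SPC libraries and 9.47, 9.95 and 10.2 CPM in the control libraries. All SPC libraries were below all control libraries, and Ddx58 fell (-0.46 ± 0.10, adjusted p = 0.0208 with the block, and 0.155 without it). Both calls depended on the libraries kept. The blocked call of Ifih1 was lost without the libraries numbered 3 (adjusted p = 0.184), and that of Ddx58 without those numbered 2 (0.104). Zbp1, a sensor of nucleic acid in the Z form that can trigger necroptosis, had 3.83, 2.87 and 3.61 CPM in the SPC libraries and 4.69, 4.48 and 4.50 CPM in the control libraries. Its groups did not overlap either, but it did not pass the test (-0.41 ± 0.15, adjusted p = 0.129 with the block). Dhx58, which encodes LGP2, a helicase related to the others that lacks their signalling domain, was at 1.80 ± 0.78 CPM with SPC and 1.72 ± 0.68 CPM in control (SD, n = 3 each) and varied more between library numbers than between groups.

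Of the 8 factors and regulators, Parp9 and Dtx3l fell (as did 3.07% of all tested genes), 5 did not pass the test and Irf7 was too low to test. Parp9 and Dtx3l encode a complex of an ADP-ribosyltransferase and a ubiquitin ligase that promotes interferon-stimulated gene expression. Parp9 had 17.7, 22.9 and 25.1 CPM in the SPC libraries and 25.4, 28.1 and 31.5 CPM in the control libraries (-0.38 ± 0.08, adjusted p = 0.0125 with the block, and 0.382 without it). Dtx3l had 20.5, 31.1 and 31.2 CPM in the SPC libraries and 33.2, 37.5 and 40.8 CPM in the control libraries (-0.45 ± 0.09, adjusted p = 0.0107 with the block, and 0.382 without it). Each gene's SPC libraries lay below all its control libraries, and library 1 was the lowest and library 3 the highest of its group for both genes. The genes lie head to head (Parp9 at chr16:35938470-35972605, Dtx3l at chr16:35926511-35939151), with 681 bases between their annotated outer starts, and 9.40% of the exonic bases of Parp9 and 8.0% of those of Dtx3l overlap the other on the opposite strand. Reads of that overlap cannot be told apart if strand was not used in counting. Parp14, which lies nearby and encodes an ADP-ribosyltransferase known as a cofactor of Stat6 in IL-4 signalling, had 22.6, 31.3 and 34.0 CPM in the SPC libraries and 30.0, 31.3 and 29.9 CPM in the control libraries. Its groups overlapped (-0.08 ± 0.10, adjusted p = 0.724 with the block).

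Usp18, the protease that takes Isg15 off proteins and restrains the type I receptor, had 0.911, 0.766 and 1.09 CPM in the SPC libraries and 1.20, 1.49 and 2.14 CPM in the control libraries. Its groups did not overlap and it did not pass the test (-0.77 ± 0.25, adjusted p = 0.0947 with the block). Stat2 and Irf9, parts of the type I factor complex, stood at -0.15 ± 0.08 and -0.13 ± 0.08 on the log2 scale in the blocked test, which called neither (adjusted p = 0.272 for Stat2 and 0.371 for Irf9). Irf9 had 17.9, 18.5 and 18 CPM in the SPC libraries and 20.4, 19.3 and 20.0 CPM in the control libraries, which do not overlap but differ little. Trim25, a ubiquitin ligase of the RIG-I pathway and the member of this group with the highest level per length, had 92.3, 116 and 113 CPM in the SPC libraries and 116, 122 and 114 CPM in the control libraries. The difference of Trim25 was within the spread of the libraries (-0.14 ± 0.07, adjusted p = 0.265 with the block).

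Among the 11 tested effectors, 3 rose, 2 fell and 6 did not pass the test, where 4.02% of all tested genes rose and 3.07% fell. The 3 that rose had the largest positive fold changes of all members and had low levels in control cells. Oasl1 (chr5:114923240-114937915), which encodes a catalytically inactive relative of the oligoadenylate synthetases that in the mouse restrains Irf7 translation, had 0.577, 1.11 and 2.48 CPM in the SPC libraries and 0.171, 0.166 and 0.545 CPM in the control libraries. These values rest on 19, 29 and 57 counts with SPC and 5, 5 and 12 counts in control. The groups did not overlap, although SPC library 1 was close to control library 3. Oasl1 was higher by 4.82-fold (log2 fold change 2.27 ± 0.65, adjusted p = 0.222) in the test without the block, and rose by 2.22 ± 0.33 on the log2 scale with it (adjusted p = 0.00266). Without the block, the log2 fold change of Oasl1 was 1.57 without SPC library 3 and 2.97 without control library 3.

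Ifit1 (chr19:34640871-34650009), whose protein binds foreign RNA that lacks a methylated cap, had 1.03, 1.84 and 2.74 CPM in the SPC libraries and 0.308, 0.464 and 0.864 CPM in the control libraries, from 34, 48 and 63 counts with SPC and 9, 14 and 19 in control. All SPC libraries lay above all control libraries, a 3.47-fold difference (1.79 ± 0.26, adjusted p = 0.00226 with the block, and 0.169 without it). In Ifit1, 7.13% of the 50-base windows also occur in another gene, mostly Ifit1bl2. Isg15 (chr4:156199424-156200818), which encodes a ubiquitin-like protein attached to other proteins, had 1.64, 2.34 and 5.48 CPM in the SPC libraries and 0.787, 1.13 and 2.59 CPM in the control libraries, from 54, 61 and 126 counts with SPC and 23, 34 and 57 in control. Here the groups overlapped, since control library 3 exceeded SPC libraries 1 and 2. Within each number the SPC library was higher by nearly the same ratio, 1.01, 1.02 and 1.07 on the log2 scale for numbers 1, 2 and 3. Isg15 rose in the blocked test (1.06 ± 0.19, adjusted p = 0.00662) and was not called without the block (1.08 ± 0.54, adjusted p = 0.556), where its log2 fold change was 0.43 without SPC library 3 and 1.69 without control library 3. The blocked calls of Oasl1, Ifit1 and Isg15 held when any library number was left out, with adjusted p between 0.000126 and 0.0389.

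Eif2ak2 and Oas3, which act on double-stranded RNA, fell. Eif2ak2 (chr17:78852564-78882573), which encodes the kinase PKR that halts translation, had 19.4, 22.6 and 21.2 CPM in the SPC libraries and 27.2, 28.4 and 27.6 CPM in the control libraries. The control libraries lay close together and above all SPC libraries, and Eif2ak2 had the smallest p of all members in the test without the block (-0.40 ± 0.09, adjusted p = 0.0984, and 0.00807 with the block). Oas3 (chr5:120753098-120777661), an oligoadenylate synthetase that activates RNase L, had 1.73, 1.91 and 2.65 CPM in the SPC libraries and 2.74, 3.18 and 4.82 CPM in the control libraries (-0.75 ± 0.16, adjusted p = 0.0197 with the block, and 0.341 without it). The Oas3 groups did not overlap, although SPC library 3 nearly reached control library 1, and the blocked call was lost without the libraries numbered 3 (adjusted p = 0.0986). Oas3 and Oasl1, of the same family, thus differed in direction.

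The other effectors gave no call. Ifit2, which stands near Ifit1 on chromosome 19, had 14.3, 13.8 and 14.5 CPM in the SPC libraries and 17.6, 17.5 and 16.9 CPM in the control libraries. Its groups were far apart for their spread, in the opposite direction to Ifit1, but the difference was small (-0.29 ± 0.08, adjusted p = 0.0661 with the block, and 0.249 without it). Bst2, whose protein tethers virus particles to the cell surface and which had the highest level per length among the effectors, had 33.2, 28.1 and 29.4 CPM in the SPC libraries and 31.0, 31.1 and 30.8 CPM in the control libraries (-0.04 ± 0.07, adjusted p = 0.830 with the block). Adar, an RNA editing enzyme gene, Ifi35 and Isg20, an exonuclease gene, had blocked log2 fold changes of -0.03 ± 0.06, -0.08 ± 0.08 and -0.25 ± 0.29. Xaf1, a partner of the apoptosis inhibitor XIAP, had -0.41 ± 0.28, and its groups overlapped.

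**Figure D4:**
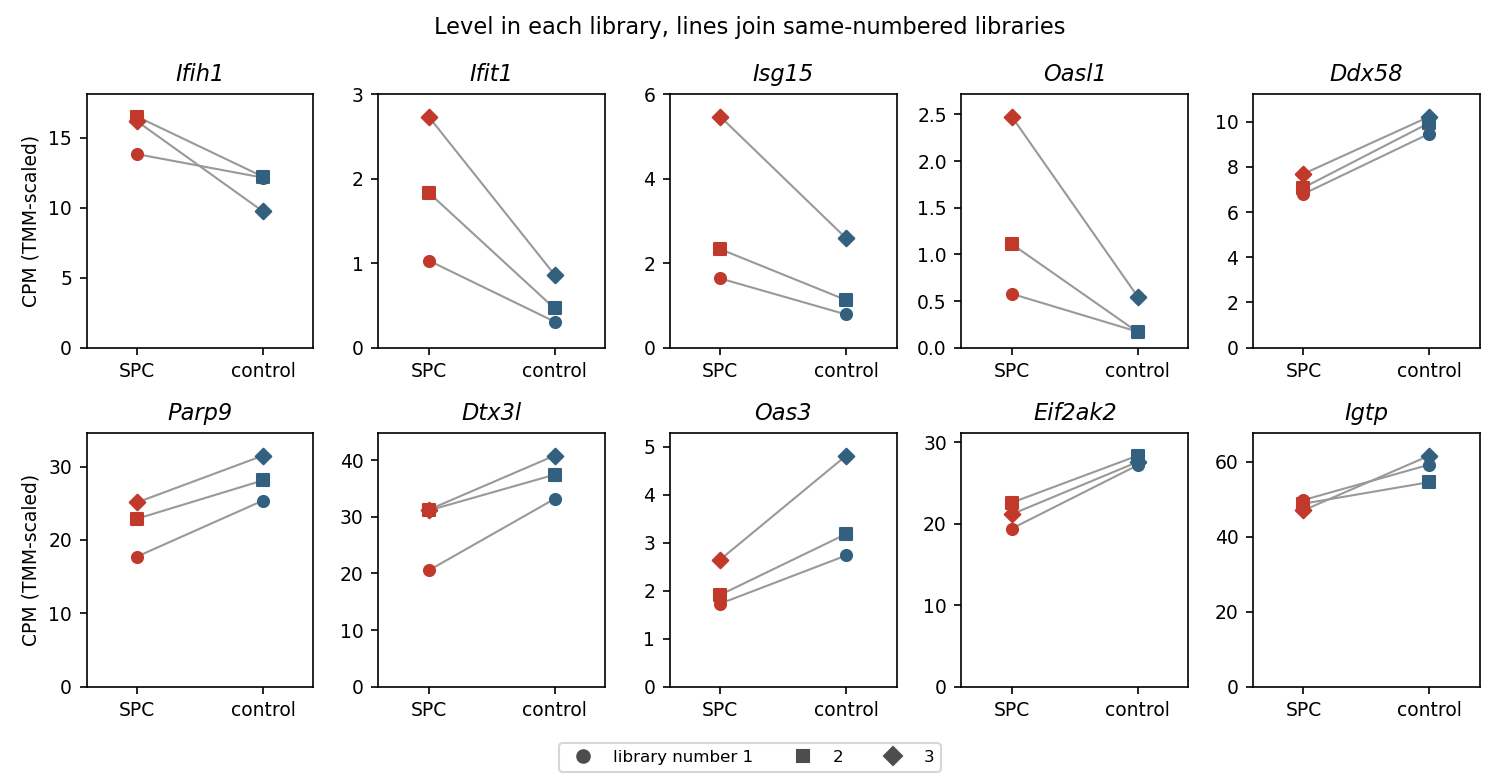
CPM of the 10 members called with the replicate block, in the 3 SPC libraries (left of each panel) and the 3 control libraries (right), with lines that join same-numbered libraries; axes start at 0. For Isg15 each line is higher at SPC than at control although control library 3 (2.59) exceeds SPC libraries 1 and 2 (1.64 and 2.34).

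All 4 immunity-related GTPases had log2 fold changes below 0, among the 24 of 29 tested members that did. Of the 4, only Igtp fell, where 3.07% of all tested genes fell. Igtp (chr11:58199556-58207591), also called Irgm3, had 49.8, 48.9 and 47.1 CPM in the SPC libraries and 59.3, 54.6 and 61.7 CPM in the control libraries. The groups did not overlap (-0.27 ± 0.07, adjusted p = 0.0406 with the block, and 0.215 without it), and the blocked call was lost without the libraries numbered 2 (0.0827) or 3 (0.309). Igtp shares 12.3% of its 50-base windows with Irgm2, whose annotation starts 62 bases away on the same strand. Irgm1 had 7.78, 7.43 and 7.34 CPM in the SPC libraries and 9.92, 10.9 and 7.50 CPM in the control libraries (-0.33 ± 0.12, adjusted p = 0.141 with the block). Iigp1, which loads onto parasite vacuoles, was low, with 7, 8 and 13 counts in the SPC libraries and 15, 28 and 13 in the control libraries (-0.96 ± 0.40, adjusted p = 0.192 with the block). For Irgm1, control library 3 lay within the range of the SPC libraries, and for Iigp1 the groups overlapped too. Irgm2 had -0.18 ± 0.10 (adjusted p = 0.340 with the block). The summed level of the 4 genes was 66.8, 67.5 and 66.8 CPM in the SPC libraries and 81.2, 78.1 and 82.4 CPM in the control libraries, most of it Igtp.

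The antigen processing genes gave no sign of a difference larger than the spread. Psmb8 had 254, 205 and 211 CPM in the SPC libraries and 226, 230 and 246 CPM in the control libraries (-0.07 ± 0.07). Psmb9, a second immunoproteasome subunit, had 24.2, 20.3 and 21.7 CPM in the SPC libraries and 20.7, 22.4 and 24.3 CPM in the control libraries (-0.02 ± 0.09). Tap1, the peptide transporter gene that lies head to head with Psmb9 on chromosome 17, had 93.2, 84.0 and 92.7 CPM in the SPC libraries and 80.4, 91.0 and 99.6 CPM in the control libraries (-0.00 ± 0.07). In all 3 genes the SPC library was the higher of the pair numbered 1 and the lower of the pairs numbered 2 and 3. The blocked adjusted p was 0.619, 0.929 and 0.999.

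The levels of the members also varied with the library number. Of the 29 tested members, 12 were highest in library 3 of both groups, where 24.7% of all tested genes were. These were Ddx58, Dhx58, Dtx3l, Ifit1, Irgm2, Isg15, Isg20, Oas3, Oasl1, Parp9, Stat2 and Usp18, which include members that rose and members that fell. Only Zbp1 was highest in library 1 of both groups (21.2% of all tested genes), and Adar, Eif2ak2, Ifih1 and Trim25 were highest in library 2 of both (11.3%). The SPC libraries lay wholly above the control libraries in 3 tested members (8.67% of all tested genes) and wholly below in 10 (7.8%). Within same-numbered pairs, 5 members were higher with SPC in all 3 pairs (21.8% of all tested genes) and 15 were lower in all 3 (22%).

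**Figure D5:**
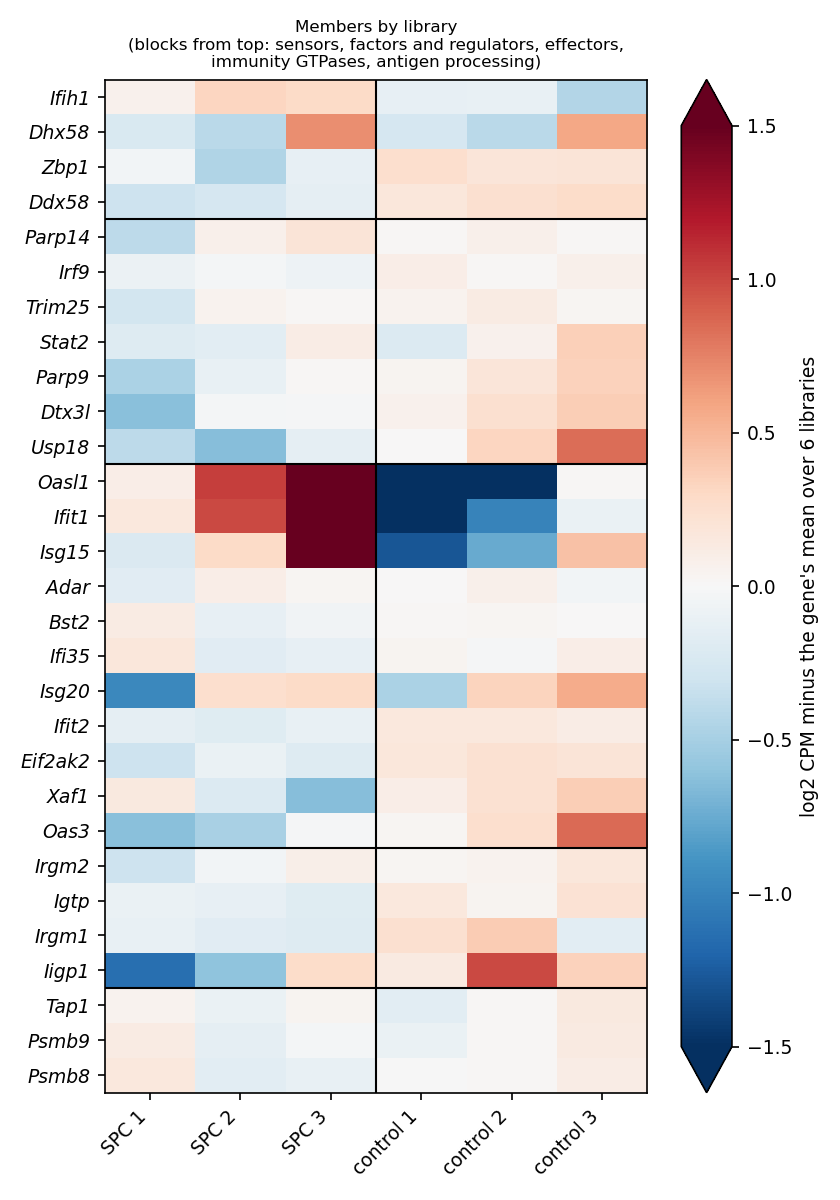
Log2 CPM of each tested member minus its mean over the 6 libraries, SPC libraries left of control libraries, with lines between the role groups and a colour scale that is capped at both ends. Oasl1, Ifit1 and Isg15 are highest in SPC library 3, and control library 3 is also the highest control library for them (0.545, 0.864 and 2.59 CPM).

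Of the other genes of the interferon pathway, the ligands were nearly silent. The 20 listed type I and type III interferon genes together had 2, 3 and 4 counts in the SPC libraries and 4, 2 and 1 in the control libraries, with Ifnb1 at 0 in all 6. The upper limit that a count of 0 allows, 3 counts in a library, is at most 0.130 CPM for Ifnb1 in the SPC libraries and 0.136 CPM in the control libraries, for counting error only. Ifng had 12, 21 and 3 counts in the SPC libraries and 12, 39 and 21 in the control libraries (-0.97 ± 0.41, adjusted p = 0.212 with the block). The receptor genes were expressed and none of the 5 tested was called, where 7.08% of all tested genes were called with the block. Ifnar1 had 54.4, 60.7 and 65.1 CPM with SPC and 65.1, 69.2 and 72.2 CPM in control (-0.20 ± 0.06, adjusted p = 0.0768 with the block). Ifngr1 had 16.3, 17.5 and 20.8 CPM with SPC and 20.5, 22.5 and 23.5 CPM in control (-0.29 ± 0.08, adjusted p = 0.0502 with the block). Ifnar2 and Ifngr2 stood at 0.00 ± 0.07 and -0.02 ± 0.06 on the log2 fold change scale, and Il10rb at 0.22 ± 0.08. Ifnlr1, the type III receptor chain gene, was too low to test, with 10, 11 and 20 counts in the SPC libraries and 1, 6 and 1 in the control libraries.

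Of the 21 tested kinase and signal factor genes, Irf5 was higher in the test without the block and 4 rose and 2 fell with it. The shares of all tested genes were 0.327% higher without the block, and 4.02% higher and 3.07% lower with it. Irf5, a factor downstream of Toll-like receptors, had 50.1, 41.2 and 51.4 CPM in the SPC libraries and 26.3, 27.1 and 24.7 CPM in the control libraries. The groups were well apart (0.87 ± 0.10, adjusted p = 0.0164, and 0.000288 with the block), and the call without the block was lost without control library 2 (0.0887) and without the libraries numbered 1 (0.0927), 2 (0.162) or 3 (0.0588). Ikbke, a kinase that activates Irf3, Tmem173, which encodes the adaptor STING, and Tlr7, a receptor of single-stranded RNA, rose by 0.45 ± 0.06, 0.37 ± 0.06 and 0.53 ± 0.13 on the log2 scale with the block (adjusted p = 0.00175, 0.00292 and 0.0306, and 0.0619, 0.346 and 0.315 without it). Over the 19 alternatives to the test on group alone, Ikbke was called in 9, Tmem173 in 7 and Tlr7 in 4. Socs1 and Socs3, inhibitors of Jak kinases, fell, with blocked values of -0.38 ± 0.06 and -0.60 ± 0.09 on the log2 scale (adjusted p = 0.00226 for Socs1 and 0.00328 for Socs3, which were 0.0514 and 0.544 without the block). Socs1 had 97.6, 93.0 and 91.8 CPM in the SPC libraries and 119, 124 and 125 CPM in the control libraries, with no overlap. Jak1, Jak2 and Tyk2, the receptor-bound kinases, and the factors Irf1 and Irf8 gave no call, with blocked log2 fold changes between -0.10 and 0.15.

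Of 49 tested further interferon-stimulated genes, 5 rose and 5 fell with the block and none was called without it. With the block 4.02% of all tested genes rose and 3.07% fell, and without it 0.483% were called. Apol9b, an apolipoprotein L gene, rose by 1.11 ± 0.14, with 7.99, 5.21 and 3.87 CPM in the SPC libraries and 3.35, 2.52 and 1.95 CPM in the control libraries (adjusted p = 0.00117, and 0.174 without the block). It was highest in library 1 of both groups, unlike Oasl1, Ifit1 and Isg15, which were highest in library 3. Ifi203, Ifi47, a GTPase gene, Shisa5 and Slfn2, which preserves T cell quiescence, rose by 0.51 ± 0.12, 0.31 ± 0.06, 0.25 ± 0.06 and 0.22 ± 0.05 (adjusted p between 0.0121 and 0.0363). Without the block, the adjusted p of these genes lay between 0.175 (Ifi47) and 0.730 (Slfn2). Epsti1, Nlrc5, the activator of MHC class I genes, Ly6e, Helz2 and Pml fell, with blocked log2 fold changes of -0.71 ± 0.14, -0.48 ± 0.11, -0.34 ± 0.07, -0.25 ± 0.07 and -0.22 ± 0.06 (adjusted p between 0.0127 and 0.0499). Without the block, their adjusted p lay between 0.0974 (Epsti1) and 0.627 (Helz2). Over the 19 alternatives to the test on group alone, Ifi203 and Pml were called in 4, and Slfn2, Ifi47, Ly6e and Helz2 in 5. The others that rose or fell were called in 6 to 8. None of the 12 tested MHC class I genes was called, where 7.08% of all tested genes were called with the block. Over all 88 tested genes of these pathway lists, 9 rose and 7 fell with the block, against 4.02% and 3.07% of all tested genes. The median log2 fold change of the 88 genes was -0.05.

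Among the 8 tested Gbp genes, which are interferon-inducible GTPases of another family, only Gbp2 and Gbp5 were called. Both were higher with SPC in the tests with and without the block, where 4.02% and 0.327% of all tested genes were called higher. Without the block, 5 of the 8 had log2 fold changes above 0 and 3 below 0. Gbp2 had 25.5, 34.6 and 39.9 CPM in the SPC libraries and 6.88, 6.97 and 7.27 CPM in the control libraries, and Gbp5 had 15.3, 22.9 and 29.2 CPM in the SPC libraries and 4.21, 4.51 and 6.96 CPM in the control libraries.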

How the data were processed

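The authors deposited raw read counts per gene symbol, 23183 symbols for each of the 6 libraries. TopHat is the aligner and mm10 the build named, per the submitters' processing notes, and the sources used here name no counting program, annotation or strand setting. Libraries were made from total RNA with a strand-marking kit, per the labels' protocols. The test was edgeR's (version 4.0.16, R 4.3.3; quasi-likelihood F test, robust, TMM scaling, filterByExpr with a minimum count of 10 and total of 15), which kept 12226 genes. Benjamini-Hochberg adjustment ran over all of them, and genes with an adjusted p under 0.05 were called. CPM values are TMM-scaled, given as mean ± SD, and log2 fold changes are SPC over control ± SE (the fold change over the square root of F). Ratios within numbers were taken after adding 0.05 CPM. DESeq2 1.42.0 was an alternative.

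The main test had group as its single term. The library numbers, taken from the sample titles, were then checked. The deviations of same-numbered libraries from their group means had correlations of 0.405, 0.205 and 0.499 over the tested genes, each over 0.1. Between SPC and control libraries of different numbers the correlations lay between -0.479 and 0.0701. Deviations from a group mean cancel out within the group, so these values depend on the same-numbered ones and are no separate evidence. On the same-numbered correlations, the numbers were taken to pair the libraries, which the titles do not state. A fit with the number as a block is given beside the main one. Chi-square values per degree of freedom of 4.82 to 34.8 between libraries of a group show that none agreed within counting noise. It is not stated that libraries came from separate animals, so p-values without the block measure the spread between these libraries. Those with the block measure the spread that is left after the library number is taken out. With 3 against 3, an exact permutation p cannot go below 0.10.

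Exonic lengths, coordinates and 50-base windows shared between the longest transcript of a member and other genes are from GENCODE M21 (GRCm38), in which all 39 members matched. Promoter sequences are from RefSeq on GRCm38.p6. All members are named. Library values are given for those called in either fit, the 3 with the smallest p in each role group and the highest per length in each, and, chosen after their values were seen, for Mx2, Rtp4 and a few others. Pathway genes are named where called, as are receptor, kinase and some factor genes, of which 1 is not reported here. The members and lists were chosen with earlier results of these data known. The fits were tested on simulated data. The upper limit given for a count of 0 covers counting error only, while SDs and the SEs without the block reflect the spread between libraries. SEs with the block reflect what is left of it after the library number is taken out.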

Additional observations from a re-analysis of the deposited data

How the results depend on the processing

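The counts depended on the replicate block, that is, on pairing the libraries by number. Without it edgeR called 59 of all tested genes, 0 members, and 1 higher and 0 lower genes of the other pathway lists. With the replicate block these were 866 genes, 4 members higher and 6 lower, and 9 pathway genes higher and 7 lower. In further settings chosen after seeing the data, the block with RLE size factors gave 869, 4 and 6, and 9 and 7, the block with no filter on low counts 1114, 4 and 6, and 11 and 9, and the block in DESeq2 638, 3 and 3 (Ifih1, Ddx58, Oas3 and Igtp lost), and 7 and 4. DESeq2 without the block called 279 genes, 2 members higher and 1 lower, and 3 pathway genes higher and 2 lower. With no filter edgeR called 147 genes, 0 members, and 2 pathway genes higher and 1 lower. Without the block, leaving out a library or a number gave 0 to 66 genes, 0 members, 0 to 1 pathway genes higher and 0 to 1 lower, and a median of the members between -0.25 (without SPC library 3) and -0.12. With the block, leaving out number 1, 2 and 3 gave 2112, 699 and 563 genes, 4, 4 and 3 members higher, 10, 4 and 4 lower, 18, 5 and 4 pathway genes higher and 13, 4 and 4 lower. Members gained without number 1 were Stat2, Usp18, Ifit2 and Psmb8.

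Of the 29 tested members, 21 kept their sign in all 19 alternatives, the 10 called ones among them. Of the others only Psmb8 was called, with the block and without number 1, and the cause of their sign changes was not tested. Leaving out libraries without the block, log2 fold changes lay between -0.33 and 0.42 for Dhx58, -0.19 and 0.10 for Parp14, -0.51 and 0.081 for Isg20, -0.11 and 0.031 for Bst2, -0.084 and 0.045 for Adar, -0.20 and 0.0068 for Psmb8, -0.15 and 0.0495 for Psmb9, -0.11 and 0.076 for Tap1, -0.010 and 0.015 for Ifnar2, -0.070 and 0.036 for Jak1, and -0.14 and 0.053 for Tyk2. With the block, the signs turned for Parp14 (0.089), Adar (0.043) and Jak1 (0.037) without number 1, for Bst2 (0.030), Psmb9 (0.0498) and Tap1 (0.068) without number 2, for Psmb9 (0.046), Tap1 (0.0499) and Ifnar2 (-0.0014) without number 3, and for Tap1 (0.0025) with no filter. Depth limits the low members: 10 of 39 could not be tested, and Oasl1 rests on 5 to 57 counts per library.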
